A study of Homo sapiens with 8 samples.

Results

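Secreted Wnt antagonists are extracellular proteins that limit Wnt signalling, and 8 of them were followed here by RNA sequencing: DKK1, DKK3, DKK4, SFRP1, SFRP2, FRZB, WIF1 and NOTUM. They were chosen by gene symbol, and all 8 had a row among the 27317 symbols of the deposited count tables. The cells were MEL1, a line of human embryonic stem cells (ESCs). While still undifferentiated they had received 2 nM of TCDD, the dioxin known as the classic ligand of AHR (the aryl hydrocarbon receptor), or only its solvent DMSO, kept under 0.1%. Each treatment has libraries from D1, when differentiation had not begun, and from D2, after 2 days of directed cardiac differentiation under 5 µM CHIR99021, a GSK3 inhibitor. The 4 groups had 2 libraries each. The sources used here do not say whether these were separate cultures, so p-values reflect only the spread between libraries, which may be technical.

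Wnt proteins bind Frizzled receptors together with the coreceptors LRP5 and LRP6, and the signal stops the destruction complex, in which GSK3 marks beta-catenin for degradation. Beta-catenin then enters the nucleus and works with TCF and LEF factors. A GSK3 inhibitor stabilises beta-catenin inside the cell, below the step that secreted antagonists block. In the early embryo Wnt signalling induces the primitive streak, the source of mesoderm, and several of its inhibitors are themselves induced by it as feedback.

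Library totals ran from 34873055 to 43770420 counts. Levels are given in edgeR's CPM, counts relative to the library total after scaling by TMM factors (0.958 to 1.04). All 8 antagonists passed the filter on low counts, but DKK1 and DKK4 passed through the D2 libraries, where they are high. The test was edgeR's quasi-likelihood F test, with Benjamini-Hochberg adjustment over 17268 genes. A gene with an adjusted p under 0.05 is called, and each log2 fold change is given with its standard error (SE) where the gene is a main subject. CYP1A1, the P450 gene most closely tied to AHR activation, checked the exposure: at D1 it had 0.787 ± 0.0373 CPM in the controls and 89.4 ± 16.5 CPM after TCDD (SD, n = 2 each). The 8 pluripotent stem cell markers summed to 6358 to 6875 CPM at D1 and 5173 to 5616 CPM at D2. All 8 primitive streak markers were called higher at D2 with DMSO, as were 32.5% of all tested genes. With TCDD 7 of them were called higher at D2, and LHX1 was called lower. T, EOMES, GSC and EVX1 passed the filter only through D2 and so had to be higher there. RNA was taken from bulk cultures, in which fewer cells that express a gene and less of its RNA per cell cannot be told apart.

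The antagonists differed widely in abundance. Divided by exonic length in GENCODE release 29, SFRP2 was the most abundant in each group, at 488 ± 28.3 CPM per kilobase with DMSO at D1 (SD, n = 2). SFRP1 followed at 91.9 ± 1.72 and DKK3 at 12.1 ± 0.104 CPM per kilobase. NOTUM (0.736 ± 0.00642), WIF1 (0.516 ± 0.041), FRZB (0.337 ± 0.0562) and DKK1 (0.0922 ± 0.00987) were all under 1 CPM per kilobase, and DKK4 had no count. By D2 with DMSO, DKK4 had moved to the fourth place at 3.96 ± 0.553 and DKK1 to the fifth at 2.53 ± 0.0996 CPM per kilobase, ahead of NOTUM at 2.08 ± 0.19. WIF1 (0.717 ± 0.0474) and FRZB (0.581 ± 0.0818) were the lowest. With TCDD at D2 the order from the fourth place was NOTUM (2.31 ± 0.426), DKK4 (1.56 ± 0.102), DKK1 (1.06 ± 0.0407), WIF1 (0.978 ± 0.0269) and FRZB (0.592 ± 0.221). In each of the 4 groups, means ± SD of neighbours in the order did not overlap in any of the 7 pairs. For some low genes, though, this SD lay below the noise of counting. With TCDD at D2, DKK1 varied by 3.84% beside 11.6% from counting, while FRZB varied by 37.4% beside 11.8%. The SDs therefore do not settle the order among the low genes. The secreted Frizzled-related proteins SFRP2 and SFRP1 and the divergent Dickkopf member DKK3 thus held the first places at both times, and the changes of order were among the low genes.

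**Figure D1:**
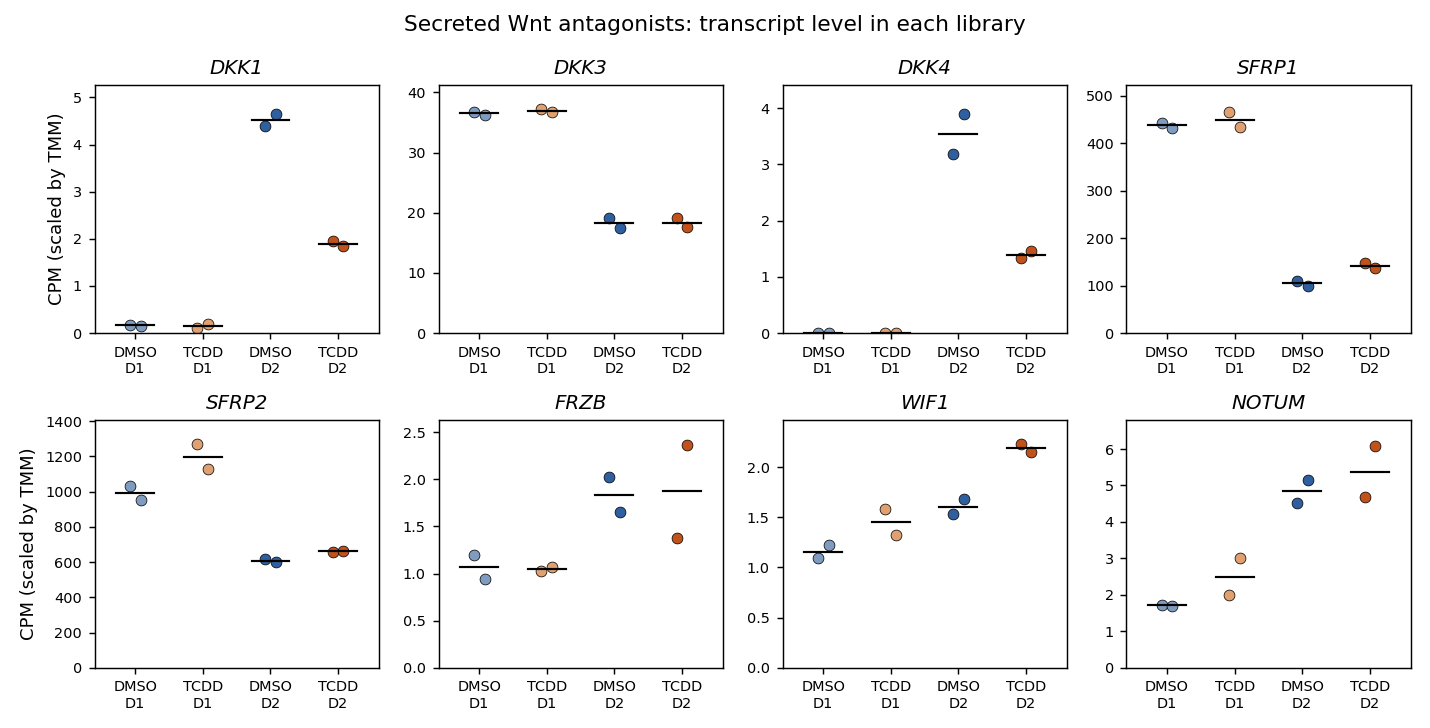
Transcript level in CPM (vertical axes, linear from 0, with a separate scale for each gene) of the 8 secreted Wnt antagonists in the 4 groups. Each point is a library and each bar the mean of 2 libraries; DKK1 and DKK4 are near or at 0 at D1 and stand at 4.52 and 3.54 CPM with DMSO against 1.9 and 1.39 CPM with TCDD at D2.

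Between D1 and D2 the antagonists changed in both directions. With DMSO, DKK1, DKK4, NOTUM, FRZB and WIF1 were higher at D2, and SFRP1, DKK3 and SFRP2 fell. The same counts, 5 higher and 3 lower, were found with TCDD. DKK1 and DKK4 entered the test through their D2 counts and so had to be higher there, and their change with time is given as a description, with no test. Of all tested genes 63.2% were called with DMSO (32.5% higher, 30.7% lower) and 65.3% with TCDD (33.1% higher, 32.2% lower), so a call by itself says little, and the sizes of the changes follow. The TCDD and time comparisons share libraries and are not independent of each other. Time in culture, the change of medium and the GSK3 inhibitor cannot be told apart in these comparisons.

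DKK1 encodes a secreted Dickkopf protein that binds LRP5 and LRP6 and keeps Wnt from engaging them. It stood at 0.177 and 0.153 CPM in the DMSO libraries of D1, and at 4.40 and 4.65 CPM in those of D2. With TCDD it stood at 0.117 and 0.193 CPM at D1 and at 1.95 and 1.84 CPM at D2. At D1 the treatments overlapped, and at D2 both TCDD libraries were below both DMSO libraries. The fitted log2 fold change from D1 to D2 was 4.75 ± 0.24 with DMSO and 3.62 ± 0.29 with TCDD (SE). The D1 levels rest on only 5 to 7 counts per library.

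A promoter window of DKK1 is shown because the gene has been studied as a direct target of beta-catenin. It was chosen with the values of DKK1 known, and any part of beta-catenin in these values was not tested. The RefSeq promoter table (GRCh38.p14, not the hg19 build of the counts) held 4 of the 8 antagonists, DKK1, SFRP2, FRZB and WIF1. The 250 bases before each start were searched on both strands for CTTTG or CAAAG, the core of TCF and LEF sites, and for GCGTG or CACGC, the core that AHR recognises. A TCF and LEF word can share no more than an end letter with an AHR word. DKK1 lies on the plus strand at chr10:52314031-52314280 and SFRP2, shown as the most abundant member and as one that fell, on the minus strand at chr4:153789084-153789333. Capitals mark the core matches.
DKK1: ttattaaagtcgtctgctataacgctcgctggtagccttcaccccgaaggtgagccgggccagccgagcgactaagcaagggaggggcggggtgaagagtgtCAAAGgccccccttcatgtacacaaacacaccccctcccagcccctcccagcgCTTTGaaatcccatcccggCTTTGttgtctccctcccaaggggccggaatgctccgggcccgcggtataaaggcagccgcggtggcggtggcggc
SFRP2: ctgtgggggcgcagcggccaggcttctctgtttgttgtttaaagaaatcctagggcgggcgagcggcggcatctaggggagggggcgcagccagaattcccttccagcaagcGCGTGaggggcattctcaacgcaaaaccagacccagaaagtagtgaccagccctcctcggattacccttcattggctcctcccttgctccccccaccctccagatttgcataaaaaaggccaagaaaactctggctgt

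The DKK1 window held 3 matches to the TCF and LEF core, whose first bases lie 148, 95 and 76 bases before the start, and none to the AHR core. Among 35114 RefSeq promoter windows of the same length, 2.83% held at least 3 matches to the TCF and LEF core and 42.1% at least 1. The DKK1 window also held TATAAA 30 bases before the start, a word that 10.7% of windows hold on either strand. The SFRP2 window held 1 match to the AHR core, 138 bases before the start, as did 32.2% of windows at least once, and none to the TCF and LEF core. WIF1 had 1 match to the TCF and LEF core, FRZB had neither, and a match of letters describes a sequence and not a bound site.

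DKK4, a close relative of DKK1 that also blocks LRP5 and LRP6, had no count in any of the 4 libraries of D1. A count of 3 would have been 0.0700 to 0.0826 CPM in these libraries. At D2 it stood at 3.19 and 3.89 CPM with DMSO and at 1.33 and 1.46 CPM with TCDD. All 4 libraries of D2 were thus above D1, and the treatments did not overlap at D2. Taking 3 counts summed over the D1 libraries of a group as the floor, DKK4 was at least 93.6-fold higher at D2 with DMSO and at least 36.7-fold higher with TCDD.

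NOTUM encodes a carboxylesterase that removes the lipid from Wnt proteins and so inactivates them. It stood at 1.72 and 1.70 CPM with DMSO at D1 and at 4.53 and 5.16 CPM at D2, and with TCDD at 1.98 and 3.00 CPM and then at 4.68 and 6.08 CPM. At each treatment the D2 libraries were above those of D1. NOTUM rose by a log2 fold change of 1.5 ± 0.19 with DMSO and 1.12 ± 0.17 with TCDD (SE, edgeR adjusted p = 1.58e-06 and 1.77e-05).

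FRZB, a secreted Frizzled-related protein that binds Wnt ligands, and WIF1, which binds Wnt through its WIF domain, were low at both times and rose by less. FRZB stood at 1.19 and 0.940 CPM with DMSO at D1 and at 2.02 and 1.65 CPM at D2. With TCDD it was at 1.03 and 1.07 CPM and then at 1.38 and 2.37 CPM. The D2 libraries were above those of D1 in each treatment, with log2 fold changes of 0.78 ± 0.25 and 0.81 ± 0.25 (SE, edgeR adjusted p = 0.0112 and 0.00817). With TCDD the value was 0.38 (edgeR adjusted p = 0.226) without replicate 2 of TCDD at D2. With DMSO the call was lost with DESeq2 (adjusted p = 0.0535) and, in edgeR, without DMSO replicate 2 of D1 or DMSO replicate 1 of D2 (edgeR adjusted p = 0.0969 and 0.0903).

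WIF1 stood at 1.09 and 1.22 CPM with DMSO at D1 and at 1.53 and 1.68 CPM at D2. With TCDD it was at 1.59 and 1.32 CPM and then at 2.23 and 2.15 CPM. Its log2 fold change was 0.48 ± 0.20 with DMSO and 0.58 ± 0.18 with TCDD (SE, edgeR adjusted p = 0.0437 and 0.00787), and the times did not overlap. The DMSO call was held in 6 of 14 alternative fits (adjusted p from 0.0433 to 0.22 in all of them), and was lost without any of the 4 DMSO libraries. The TCDD call was lost with DESeq2 and without replicate 2 of TCDD at D1 (adjusted p = 0.0828 and 0.0651).

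SFRP1 and SFRP2, which carry a Frizzled-like domain that binds Wnt, and DKK3, which unlike DKK1 is not known as a strong LRP blocker, fell. SFRP1 stood at 443 and 432 CPM with DMSO at D1 and at 111 and 99.1 CPM at D2, and with TCDD at 466 and 434 CPM and then at 147 and 137 CPM. Its log2 fold change from D1 to D2 was -2.06 ± 0.06 with DMSO and -1.66 ± 0.06 with TCDD (SE, edgeR adjusted p = 2.16e-15 and 3.37e-14). SFRP1 thus had the largest fall among the 8, and its D2 level lay apart from D1 in every library.

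SFRP2 stood at 1033 and 951 CPM with DMSO at D1 and at 615 and 599 CPM at D2, and with TCDD at 1270 and 1125 CPM and then at 658 and 665 CPM. It fell by 0.71 ± 0.05 with DMSO and by 0.86 ± 0.05 with TCDD on the log2 scale (SE, edgeR adjusted p = 3.25e-09 and 2.46e-10). DKK3 went from 36.7 and 36.3 CPM with DMSO at D1 to 19.1 and 17.4 CPM at D2, and from 37.2 and 36.7 CPM to 19.1 and 17.6 CPM with TCDD. Its log2 fold changes, -0.999 ± 0.07 and -1.01 ± 0.07 (SE, edgeR adjusted p = 3.92e-10 and 2.95e-10), were close to each other. In each treatment the D2 libraries of NOTUM, FRZB, WIF1, SFRP1, SFRP2 and DKK3 lay apart from their D1 libraries. So did those of 82.5% of tested genes with DMSO (42% higher, 40.4% lower) and 81.4% with TCDD (40.6% higher, 40.8% lower). DKK1 and DKK4 lay apart too, but they passed the filter through D2 and so had to be higher there.

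**Figure D2:**
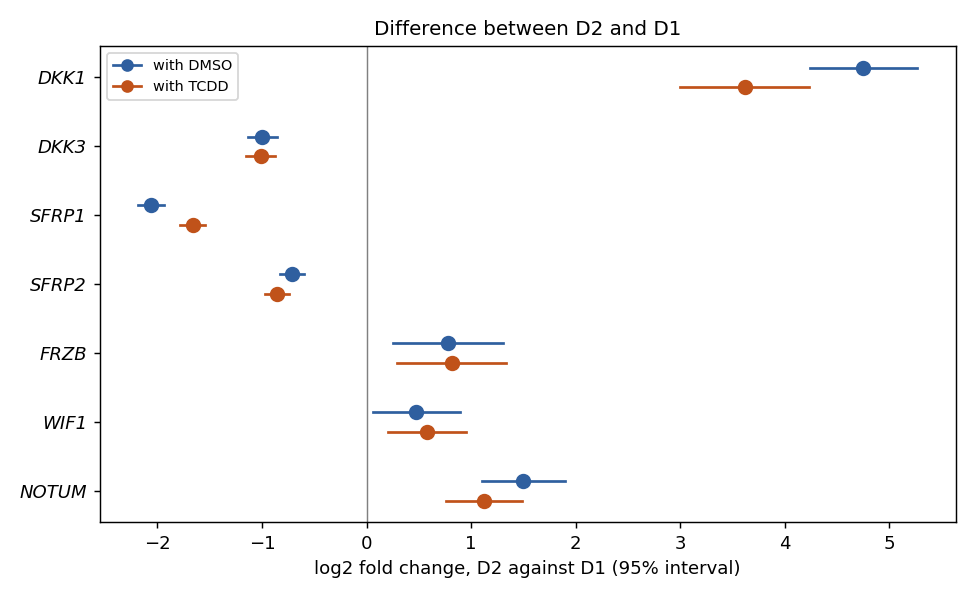
Log2 fold change of D2 against D1 (horizontal axis) with DMSO and with TCDD for 7 secreted Wnt antagonists, with points for the edgeR estimate and lines for its 95% interval. DKK4 is left out because it had no count at D1; DKK1, FRZB, WIF1 and NOTUM lie above 0 and DKK3, SFRP1 and SFRP2 below 0 in both treatments.

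In undifferentiated cells at D1, 1 of the 8 antagonists differed between TCDD and DMSO. SFRP2 rose to 121% of its DMSO level, by 0.27 ± 0.05 on the log2 scale (SE, edgeR adjusted p = 0.0148), and both TCDD libraries were above both DMSO libraries. Of all tested genes 1.2% were called in this comparison, 0.764% higher and 0.434% lower. The SFRP2 call was lost when replicate 2 of DMSO or replicate 1 of TCDD was left out at D1 (log2 fold change 0.21 and 0.18, edgeR adjusted p = 0.166 and 0.101) and when only the 4 libraries compared were fitted (0.27, edgeR adjusted p = 0.106).

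The other antagonists at D1 did not pass. NOTUM, at 1.98 and 3.00 CPM with TCDD against 1.72 and 1.70 CPM, had an estimate of 0.52 ± 0.21 on the log2 scale (SE, edgeR adjusted p = 0.372), which was 0.21 without TCDD replicate 2 and 0.81 without TCDD replicate 1. WIF1 had 0.34 ± 0.20 (edgeR adjusted p = 0.601), with its TCDD libraries above its DMSO libraries. DKK3 (0.02, 95% interval -0.11 to 0.15) and SFRP1 (0.04, -0.07 to 0.15) had narrow intervals around 0. FRZB (-0.02, -0.61 to 0.56) and DKK1 (-0.12, -1.20 to 0.96) had wide ones, at the counts of these genes, so a moderate change would not have been detectable at this depth. The treatments' libraries did not overlap for 4 of the 8, and for 37.5% of all tested genes (18.9% higher, 18.6% lower).

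At D2, TCDD lowered DKK1 and DKK4 and raised SFRP1, and the other 5 did not pass. DKK1 averaged 4.52 ± 0.178 CPM in the controls and 1.9 ± 0.0728 CPM after TCDD (SD, n = 2 each). Its log2 fold change was -1.25 ± 0.15, which is 42% of the DMSO level (SE, edgeR adjusted p = 4.41e-05). DKK4 stood at 1.39 ± 0.0912 against 3.54 ± 0.494 CPM. Its log2 fold change was -1.35 ± 0.18, which is 39.1% of the DMSO level (SE, edgeR adjusted p = 0.000258). Both were still above their D1 levels.

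SFRP1, which had fallen most from D1, was higher with TCDD, at 142 ± 6.87 against 105 ± 8.2 CPM (SD, n = 2 each). The log2 fold change was 0.44 ± 0.06, or 135% of the DMSO level (SE, edgeR adjusted p = 0.000112). The 3 calls held in all 14 alternative fits, with log2 fold changes from -1.29 to -1.21 for DKK1, -1.48 to -1.20 for DKK4 and 0.36 to 0.52 for SFRP1. Of all tested genes 2.95% were called at D2, 1.41% higher and 1.54% lower. Both TCDD libraries lay apart from both DMSO libraries for 5 of the 8 antagonists, these 3 with SFRP2 and WIF1, and for 47.7% of tested genes (24.4% higher, 23.3% lower).

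Among the antagonists that did not pass at D2, WIF1 had TCDD libraries at 2.23 and 2.15 CPM against 1.53 and 1.68 CPM, an estimate of 0.45 ± 0.17 on the log2 scale (SE, edgeR adjusted p = 0.23). SFRP2 had 0.12 ± 0.05 (edgeR adjusted p = 0.311), with both TCDD libraries above both DMSO libraries. NOTUM had 0.14 (95% interval -0.19 to 0.46), FRZB 0.01 (-0.46 to 0.48) and DKK3 0.01 (-0.14 to 0.15). The interval of DKK3 was the narrowest of these, while FRZB varied between its TCDD libraries, from 1.38 to 2.37 CPM.

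**Figure D3:**
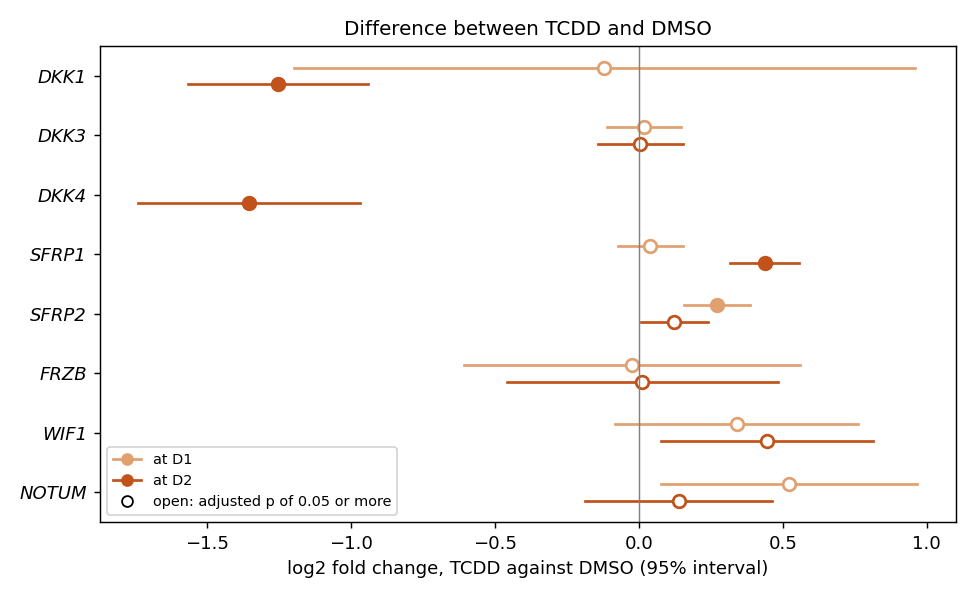
Log2 fold change of TCDD against DMSO (horizontal axis) at D1 and D2 for the 8 secreted Wnt antagonists, with points for the edgeR estimate and lines for its 95% interval; open points did not pass an adjusted p of 0.05. DKK4 has no D1 value because it had no count there; DKK1 and DKK4 lie at -1.25 and -1.35 at D2, and SFRP1 at 0.44.

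Most primitive streak markers were lower with TCDD at D2, and the other marker lists had at most 1 called gene each. The 8 streak markers summed to 290.0 to 331.8 CPM with TCDD and 605.6 to 642.2 CPM with DMSO. Of these, 6 were called lower, as were 1.54% of all tested genes. MESP1 did not pass and stood higher with TCDD, at 1.32 ± 0.0423 against 1.04 ± 0.0428 CPM. LHX1 did not pass either and was under 1 CPM in every library. MIXL1, a streak homeobox factor, stood at 128 ± 12.5 against 297 ± 15.9 CPM (SD, n = 2 each). Of 8 pluripotency markers, which summed to 5509 to 5616 against 5173 to 5259 CPM, only SOX2 was called, at 361 ± 14.9 against 240 ± 8.61 CPM. NANOG, not called, had 22.9 ± 0.00957 CPM after TCDD beside 25.5 ± 0.999 CPM in the controls (edgeR adjusted p = 0.268).

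The other lists were led by single genes. The 6 endoderm markers summed to 29.01 to 32.03 against 45.56 to 48.77 CPM, and CER1 was the only one of 4 tested that was called, and it was lower. HHEX, FOXA2 and CXCR4 did not pass, and SOX17 and FOXA1 were under 1 CPM in every library. The 6 trophoblast markers summed to 15.6 to 18.1 against 9.2 to 10.6 CPM, nearly all of it CDX2 (15.3 ± 1.75 against 8.69 ± 1.13 CPM). CDX2 was the only one of 3 tested that was called, and it was higher. KRT7 did not pass and also stood higher with TCDD, at 1.38 ± 0.09 against 0.93 ± 0.0756 CPM. GATA3 did not pass either. GATA3, TFAP2A and HAND1 were under 1 CPM in every library and CGA was at 0. CER1 and CDX2 are also members of the Wnt lists described later. The 6 stroma markers summed to 352.7 to 354.7 against 297.0 to 313.8 CPM, and of 3 tested COL1A1 rose (135 ± 8.78 to 197 ± 0.232 CPM). COL1A1 was also called higher with TCDD at D1 (325 ± 4.47 to 374 ± 14.1 CPM). COL1A2 and THY1 did not pass at D2, with THY1 at 71.9 ± 1.01 against 81.9 ± 1.43 CPM. COL3A1 and DCN were under 1 CPM in every library and LUM was at 0. The 6 neuroectoderm markers summed to 386.2 to 396.6 against 363.6 to 366.1 CPM, and none of 4 tested passed, with SOX1, ZIC1 and LHX2 under 1 CPM in every library. None of 3 tested cardiomyocyte markers passed. The part of these shifts in the values of DKK1, DKK4 and SFRP1 was not tested.

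Whether the TCDD effect differed between the times was tested directly. SFRP1 was the antagonist that passed, with a D2 effect above its D1 effect by 0.40 ± 0.08 on the log2 scale (SE, edgeR adjusted p = 0.0212), where 0.77% of tested genes were called (0.492% higher, 0.278% lower). This call was lost without either DMSO library of D1, DMSO replicate 2 of D2 or TCDD replicate 1 of D2 (edgeR adjusted p = 0.052 to 0.192). For DKK1 the difference was -1.13 ± 0.55 (95% interval -2.30 to 0.03, edgeR adjusted p = 0.504), with 5 to 7 counts per library at D1. SFRP2, called at D1 and not at D2, had a difference of -0.15 ± 0.08 (edgeR adjusted p = 0.529), so its effects were not shown to differ. For DKK4 no difference can be estimated, since it had no count at D1 in either treatment.

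The rest of the Wnt pathway was followed in 6 lists of 88 further genes, of which 77 were tested. With TCDD at D2, 10 of them rose and 6 fell, with a median log2 fold change of 0.03 beside 0.00 for all tested genes, of which 2.95% were called. Without DMSO replicate 1 of D2 these counts were 4 and 4, without TCDD replicate 1 of D2 7 and 3, and without TCDD replicate 2 of D2 4 and 5. At D1, 2 rose and 1 fell, where 1.2% of tested genes were called, and 1 was called without any of 6 libraries, all but DMSO replicate 2 and TCDD replicate 1 of D1. Most genes of the pathway therefore did not pass in either comparison, and the exceptions are named by role.

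Among 13 tested inhibitors other than the 8, CER1, a secreted antagonist of Nodal, BMP and Wnt, fell with TCDD at D2 from 31.1 ± 2.57 to 14.6 ± 0.58 CPM (SD, n = 2 each). Its log2 fold change was -1.10 (edgeR adjusted p = 8.3e-06), but it did not pass with DESeq2 (adjusted p = 0.127). At D1 it was also called lower (-1.45, edgeR adjusted p = 0.0389), from only 1.52 ± 0.859 CPM, and held the call in 5 of 14 alternative fits, with -0.72 (edgeR adjusted p = 0.807) without DMSO replicate 1 of D1. RNF43, a ubiquitin ligase that removes Frizzled receptors, rose at D2 (0.24, edgeR adjusted p = 0.0385), as did KREMEN2, a Dickkopf receptor (0.32, edgeR adjusted p = 0.0487). Those 2 calls held in 9 and 6 of 14 alternative fits. The other 10 did not pass. Of the remaining Dickkopf and SFRP genes, DKK2 and SFRP4 had at most 3 and 5 counts in a library and were not tested.

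Of 14 tested Wnt ligands, 1 fell and 1 rose with TCDD at D2. WNT3, the ligand required for streak formation in the mouse, averaged 41.2 ± 1.38 CPM in the controls and 21.0 ± 0.498 CPM after TCDD (SD, n = 2 each). Its log2 fold change was -0.97 (edgeR adjusted p = 1.59e-07). WNT10B rose by 0.44 (edgeR adjusted p = 0.0157), and lost this without DMSO replicate 1 or either TCDD library of D2. No ligand was called at D1, and none of 4 tested genes of ligand export or the R-spondin family was called in either TCDD comparison.

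Of 17 tested receptors and coreceptors, 4 rose and 1 fell with TCDD at D2. ROR1, a Wnt coreceptor of the ROR family, averaged 74.8 ± 0.109 CPM in the controls and 116 ± 0.00746 CPM after TCDD (0.63, edgeR adjusted p = 4.18e-07), and was also higher at D1 (0.39, edgeR adjusted p = 0.000232). LGR4, an R-spondin receptor, rose by 0.53 at D2, and by 0.22 at D1 in a call held in 6 of 14 alternative fits. The Frizzled receptors FZD7 (0.46) and FZD2 (0.36) rose at D2 and FZD5 (-0.32) fell (edgeR adjusted p = 0.000185, 0.00307 and 0.00431). FZD2 and FZD5 lost the call without DMSO replicate 1 of D2, FZD2 also without TCDD replicate 2 and FZD5 without TCDD replicate 1 of D2 (edgeR adjusted p up to 0.0682 and 0.116). LRP6 and LRP5, the coreceptors that DKK1 and DKK4 bind, had log2 fold changes of -0.01 and 0.08 at D2 (edgeR adjusted p = 0.977 and 0.711).

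Downstream genes moved in both directions. Of 13 genes of the destruction complex and its nuclear partners, 1 rose with TCDD at D2, TCF7L1, a TCF repressor of pluripotent cells (0.25, edgeR adjusted p = 0.0037), a call lost without TCDD replicate 2 or either DMSO library of D2 (edgeR adjusted p up to 0.0977). Of 16 target genes of beta-catenin, 2 rose and 3 fell. T, encoding Brachyury, fell (-0.90), as did the homeobox gene EVX1 (-0.85) and the BMP pseudoreceptor BAMBI (-0.34), while CDX2, a caudal homeobox factor, rose (0.81; edgeR adjusted p = 8.06e-08, 0.00487, 0.0465 and 0.000192). AXIN2, a scaffold of the destruction complex and a widely used readout of beta-catenin, was at 166 ± 7.42 against 145 ± 8.21 CPM (0.19, edgeR adjusted p = 0.0495), a call held in 6 of 14 alternative fits and lost without any of the 4 libraries of D2. The EVX1 call was lost when replicate 2 of DMSO or replicate 1 of TCDD was left out at D2 and with DESeq2 (adjusted p up to 0.343), and the BAMBI call without any library of D2 (edgeR adjusted p up to 0.335). SP5 (0.11), NKD1 (0.15) and LEF1 (-0.05), other feedback or nuclear genes of the pathway, did not pass (edgeR adjusted p = 0.535, 0.273 and 0.885).

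**Figure D4:**
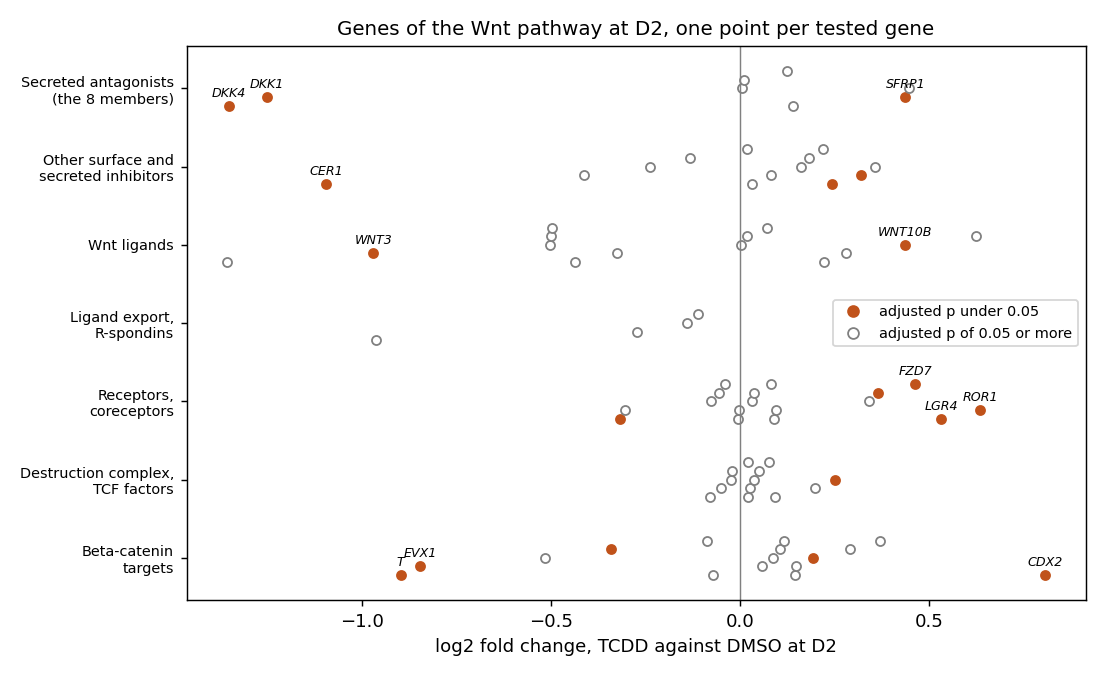
Log2 fold change of TCDD against DMSO at D2 (horizontal axis) for the tested genes of the 8 secreted Wnt antagonists and of 6 further Wnt pathway lists (rows), with 1 point per gene; filled points passed an adjusted p of 0.05, and those beyond 0.4 in size are named. DKK4 and DKK1 at -1.35 and -1.25 are the lowest filled points, with CER1 at -1.10, WNT3 at -0.97 and T at -0.90.

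In the differentiation comparison with DMSO, 36 of the 77 rose and 23 fell, where 63.2% of all tested genes were called, 32.5% higher and 30.7% lower. Of 16 beta-catenin targets 13 rose and 1 fell. SP5 went from 0.140 ± 0.0541 to 199.6 ± 9.6 CPM and GAD1 from 0.635 ± 0.107 to 117 ± 4.1 CPM (SD, n = 2 each). SP5, T, CDX1, CDX2 and EVX1 passed the filter on low counts only through D2, as did the ligands WNT3A and WNT8A. They had to be higher there, so their part in the counts of this paragraph is a description, with no test. LEF1 (log2 fold change 4.71) and TCF7 (1.39) rose, and TCF7L2 (-0.92) fell. Among the other inhibitors 5 rose and 7 fell, among ligands 5 and 5, and among receptors 6 and 6. The rule for naming genes took the smallest p, and most of these rose. The inhibitors APCDD1 (3.50), RNF43 (2.34) and CER1 (4.35), the ligands WNT3 (3.83), WNT5B (3.39) and WNT10B (4.36), and the Wnt transporter WLS (5.55) rose, as did the receptors FZD10 (3.01) and ROR2 (1.54). FZD7 (-1.16) and the acyltransferase PORCN (-0.23) fell, the latter in a call held in 9 of 14 alternative fits (-0.36 to -0.08, adjusted p up to 0.521) and lost with DESeq2 and without DMSO replicate 2 of D1, TCDD replicate 1 of D2 or either DMSO library of D2. The ligands WNT4, WNT5A, WNT7B, WNT8B and WNT16 fell, as did the secreted inhibitors DKKL1 and SFRP5. WNT7B and WNT16 passed the filter only through D1, where they are high, as did SOST, 1 of the 7 inhibitors that fell. Their fall is thus a description, with no test.

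The genes whose levels ran most like each antagonist were found over the 8 libraries, by the root mean square (RMS) difference of log2 CPM centred on each gene's mean, among 13707 genes. For DKK1 the nearest was WNT3 (RMS 0.258), followed by NPAP1 and HPGD. DKK4 was nearest to the long non-coding HOTAIRM1 (0.328) and then to FGF8, with a larger difference than the nearest gene of any other member. SFRP1 ran most like LINGO1 (0.0571), SFRP2 like RBPMS (0.03) and DKK3 like HBP1 (0.0352).

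LINGO1 illustrates the pattern of SFRP1, with 97.4 ± 2.5 CPM at D1 and 23.0 ± 0.688 CPM at D2 with DMSO, and 101 ± 5.11 and 31.8 ± 1.27 CPM with TCDD (SD, n = 2 each). WIF1 was nearest to the receptor gene FZD2 (0.0758) and FRZB to ARID5A (0.131). The points share libraries and depth, low genes carry more counting noise, and the measure is a description without a test.

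Of the 8 antagonists, DKK1 overlaps exons of a gene on the other strand in GENCODE release 29, PRKG1-AS1. The strand setting of the counting is not given in the sources used here, so reads of the pair may be mixed. PRKG1-AS1 had 0 to 10 counts in a library, with 2 and 10 in the DMSO libraries of D2 and 1 and 0 in the TCDD libraries of D2, beside 67 to 191 for DKK1 at D2.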

How the data were processed

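RNA sequencing libraries of MEL1 cells were analysed in 4 groups of 2, taken from the sample titles. The authors deposited unnormalised whole-number read counts for each gene symbol. Per the submitters' processing notes the tools were cutadapt 1.9.1 for trimming, STAR for alignment and featureCounts 1.5.1 for counting, with hg19 as the build. The sources used here give no annotation, strand setting or treatment of multi-mapping reads, which could shift counts of overlapping genes.

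R 4.3.3, edgeR 4.0.16 and DESeq2 1.42.0 were used. Genes were filtered with filterByExpr, scaled by TMM, and fitted over all 8 libraries with 1 coefficient per group (biological coefficient of variation 3.86%). The SE came from the F statistic and can be too small at few counts. Averaged over genes with at least 20 counts in a group, replicates differed by more than sampling noise (chi-square per gene 3.21 to 6.59). Among the members, the spread between libraries was above counting noise in every group for SFRP1 and SFRP2. It was below counting noise in every group for DKK1 and WIF1, and the others were mixed. The fit was also run on simulated counts, with the same spread set for all genes and no change between D1 and D2. The data differ from both settings, so that run does not measure the error of the calls here. Exonic lengths came from GENCODE release 29 and promoter windows from RefSeq (GRCh38.p14).

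The members, lists, tests and naming rule were chosen with earlier results of these data known. Named are the 8 members, up to 4 called genes of each Wnt list by smallest p in each TCDD comparison and up to 3 in differentiation, the 3 nearest genes of each member (mean of at least 1 CPM, prior count 2), some of which are not reported here, and the checks CYP1A1 and MIXL1. FZD5, SOX2, SP5, NKD1, LEF1, LRP5, LRP6, DKK2, SFRP4, DKKL1, SFRP5, COL1A1, the fallen ligands of differentiation, the other markers, PRKG1-AS1 and the D2 value of AXIN2 were named after their values were seen. Alternatives were other scalings, no filter, DESeq2, a replicate block, fits of only the groups compared, and leaving out each library.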

Additional observations from a re-analysis of the deposited data

Results flagged for a closer look

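In the 6 genes described here the TCDD effect at D2 differed from that at D1 by a test of the difference itself. Values are in log2 units. Of the further cell type markers, COL1A1 and NES were also called higher and LHX1 lower in this test, and they were not followed through the alternatives. SFRP1 had a difference of 0.40 (edgeR adjusted p = 0.0212), with a TCDD effect of 0.04 at D1 and 0.44 at D2. It lost the call without either DMSO library of D1, DMSO replicate 2 of D2 or TCDD replicate 1 of D2. Over all 13 alternatives its difference ran from 0.32 to 0.48. FZD7 had a difference of 0.55 (edgeR adjusted p = 0.00516), from -0.09 at D1 to 0.46 at D2, and lost the call without DMSO replicate 1 of D2 (edgeR adjusted p = 0.0589). AXIN2 had a difference of 0.38 (edgeR adjusted p = 0.0233), from -0.19 at D1 to 0.19 at D2, and did not pass when replicate 1 of DMSO was left out at either time, or replicate 2 of TCDD at the later time (edgeR adjusted p between 0.14 and 0.184). SOX2 had a difference of 0.75 (edgeR adjusted p = 1.58e-05), from -0.16 to 0.59, and kept the call in all 13 alternatives. MIXL1 had a difference of -1.10 (edgeR adjusted p = 0.0281), from -0.11 to -1.21, and lost the call without either DMSO library of D1, DMSO replicate 1 of D2 or TCDD replicate 2 of D1 (edgeR adjusted p up to 0.224). CYP1A1 had a difference of -4.27 (edgeR adjusted p = 0.00125), from 6.82 to 2.56, and lost the call without DMSO replicate 1 of D2 (edgeR adjusted p = 0.086).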

How the results depend on the processing

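Of 520 recomputed fold changes of the 8 antagonists, 481 kept their direction and call, 21 kept the direction and lost the call, and 18 changed sign; for the other named genes 589, 72 and 6 of 667 did so. Each change of sign was in a gene that was not called. With library totals alone, DKK3 and FRZB at D2 with TCDD became -0.01253 and -0.007211, and with DESeq2 the difference of effects of DKK3 became 0.0008272. LRP6 at D2 became 0.002482 with RLE size factors and 0.005809 with DESeq2. Leaving out 1 library gave, at D1 with TCDD, -0.4902 to 0.2188 for DKK1, -0.01267 to 0.08912 for SFRP1 and -0.1857 to 0.1558 for FRZB. At D2 it gave -0.0613 to 0.07349 for DKK3, -0.4072 to 0.3711 for FRZB, -0.05209 to 0.3248 for NOTUM, -0.003139 to 0.2114 for SP5, -0.009291 to 0.1739 for LRP5 and -0.03666 to 0.0288 for LRP6. For the difference of effects it gave -0.07938 to 0.05528 for DKK3, -0.388 to 0.3959 for FRZB and -0.009119 to 0.2541 for WIF1.

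Over all 8 libraries edgeR and DESeq2 each called 1 antagonist at D1, SFRP2. Its log2 fold change ran from 0.18 to 0.35 over the 14 alternative fits. With only the libraries compared, edgeR called 0 antagonists at D1, with an edgeR adjusted p of 0.106 for SFRP2. For the difference of effects 0 to 1 were called with a library left out. The genes called at D1 were 207, but 505 without the filter, 114 with only the libraries compared and 80 to 265 with a library left out, the lowest without DMSO replicate 1 of D1. At D2 they were 509, but 908 without the filter and 198 to 648 with a library left out, the lowest without DMSO replicate 1 of D2, with 246 without DMSO replicate 2 and 221 without TCDD replicate 2 of D2. For the difference of effects they were 133, but 468 without the filter and 29 to 275 with a library left out (lowest without DMSO replicate 1 of D2, highest without TCDD replicate 1 of D1); of the 8 libraries, leaving out any but TCDD replicate 2 of D1 moved this count by over 1.5 times. The lone library of a group is then assumed to vary like the other groups. Library totals alone moved the median of all genes by -0.0865 from D1 to D2 with DMSO and by -0.109 with TCDD, and the calls from 5617 higher and 5296 lower to 4381 and 6419, and from 5709 and 5560 to 4183 and 6996. DESeq2 called 214 higher and 147 lower at D2 (243 and 266 with edgeR), and 111 and 36 for the difference of effects (85 and 48), where library totals gave 75 and 63.

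The replicate numbers are shared between groups, and the labels do not say that they pair samples. Deviations of same-numbered libraries correlated at 0.318 at D1 and 0.203 at D2 between treatments, and at 0.0502 and -0.278 between times, over 10804 genes. With the replicate number as a block, 1, 3, 8, 8 and 1 antagonists were called in the 5 comparisons, as without it, and 225, 515, 10901, 11234 and 159 genes. Among the named genes AXIN2 at D2 lost its call under this block (edgeR adjusted p = 0.0549), and no other call among those recomputed changed. With 2 libraries a group and few counts of DKK1 and DKK4 at D1, small differences were not detectable.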
